A study of Mus musculus with 8 samples.

Results

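The guanylate-binding protein (GBP) genes Gbp2, Gbp3, Gbp4, Gbp5, Gbp6, Gbp7, Gbp8 and Gbp9 were followed in RNA-seq of mouse Ly6Chigh monocytes, the inflammatory subset that leaves the blood for injured tissue. The 8 members were taken by gene symbol from the 56748 genes listed, and 7 of them, all but Gbp6, were among the 11222 genes with enough counts to be tested. The cells were sorted by flow cytometry from the spleens of wild-type (WT) mice and of mice in which the olfactory receptor gene Olfr2 was knocked out (KO), at day 7 after an aneurysm was induced, and there were 4 libraries of each genotype. The study asks about the part of Olfr2 in monocyte recruitment during abdominal aortic aneurysm. Both genotypes had the induction, so the data hold no uninduced control. The strain, age, sex and knockout allele, the way the aneurysm was induced, and the animal behind each library are not given in the labels used here, and p-values therefore measure the spread between these libraries.

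GBPs are large GTPases that hydrolyse GTP and assemble into coats on membranes. Interferon-gamma, and more weakly type I interferon, switches on their transcription through interferon regulatory factors such as IRF1. In macrophages and monocytes they are known for binding the vacuoles of intracellular parasites and the surface of cytosolic bacteria, for exposing them to lysis, and for feeding bacterial ligands to inflammasomes. Some members, Gbp2 and Gbp5 among them, carry a C-terminal lipid (a prenyl group) that anchors them to membranes.

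The members lie in a pair of clusters on build GRCm38 (gene models of GENCODE release M21). Gbp5, Gbp7, Gbp3 and Gbp2 follow each other on the plus strand of chromosome 3, from 142493978 to 142638008. Gbp8, Gbp9, Gbp4 and Gbp6 lie on the minus strand of chromosome 5, from 105014150 to 105293698, where Gbp8, Gbp9 and Gbp4 overlap and begin at nearly the same base. Promoter sequences were at hand for the chromosome 3 members only, and those of Gbp4, Gbp6, Gbp8 and Gbp9 were not examined. The chromosome 3 promoters are shown because letters that interferon-activated factors are known to read stand close to the start. The sequences are from RefSeq (GRCm38.p6) and run 5′ to 3′ from 250 bases before the start site, ending at most 15 bases inside an annotated exon. Capitals mark the core of an interferon-stimulated response element (ISRE core, GAAANNGAAA or its reverse complement TTTCNNTTTC) and the gamma-activated site (GAS, TTCNNNGAA, the same on both strands).
Gbp5 (chr3:142496684-142496914, plus strand): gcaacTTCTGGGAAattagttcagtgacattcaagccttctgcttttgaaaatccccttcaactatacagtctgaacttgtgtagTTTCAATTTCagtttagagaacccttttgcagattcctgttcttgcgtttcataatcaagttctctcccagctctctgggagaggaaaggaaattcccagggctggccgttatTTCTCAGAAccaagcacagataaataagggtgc
Gbp7 (chr3:142530086-142530335, plus strand): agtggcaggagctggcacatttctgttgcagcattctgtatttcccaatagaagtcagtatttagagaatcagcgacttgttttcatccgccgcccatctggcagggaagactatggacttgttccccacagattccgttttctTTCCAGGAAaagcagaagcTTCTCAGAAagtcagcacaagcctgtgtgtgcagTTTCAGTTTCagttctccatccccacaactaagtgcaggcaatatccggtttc
Gbp3 (chr3:142559794-142560040, plus strand): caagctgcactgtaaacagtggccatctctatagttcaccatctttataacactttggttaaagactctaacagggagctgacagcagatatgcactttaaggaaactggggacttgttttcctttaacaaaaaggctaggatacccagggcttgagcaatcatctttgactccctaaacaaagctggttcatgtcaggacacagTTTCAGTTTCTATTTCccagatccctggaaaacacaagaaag
Gbp2 (chr3:142620413-142620616, plus strand): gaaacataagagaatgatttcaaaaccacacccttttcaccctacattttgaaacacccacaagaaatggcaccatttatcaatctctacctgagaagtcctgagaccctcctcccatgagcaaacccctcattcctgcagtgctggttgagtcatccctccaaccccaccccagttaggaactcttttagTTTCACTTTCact
An ISRE core match began 59 bases upstream of the RefSeq start of Gbp2, 53 bases upstream in Gbp7 and 165 bases upstream in Gbp5. In Gbp3 there were 2 overlapping matches, at 45 and 39 bases upstream, and the window of a second Gbp3 start held none. All these ISRE core matches read on the minus strand. GAS matches stood at 245 and 52 bases upstream in Gbp5 and at 106 and 87 bases upstream in Gbp7, and no GAS letters stood in the windows of Gbp2 and Gbp3. Over 32851 promoter windows of 300 bases, 3.44% held an ISRE core match and 8.30% a GAS match, against 4 and 2 of the 5 windows of these 4 genes. GENCODE also lists a Gbp5 start 2956 bases further upstream, and it begins Gbp2 61 bases before the RefSeq start, so its match lies at the very edge of the annotated first exon. A match describes letters and not a bound site.

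Total counts lay between 16111725 and 21728794 per library, and a count of 0 (limit of 3 counts) allows up to 0.139 to 0.186 CPM (counts scaled to the TMM-adjusted library size), for counting error only. Olfr2 had 0 counts in 8 of 8 libraries, which leaves the genotype labels unchecked by the targeted gene. The numbers in the names of the count columns fall in a 1600 series (WT 1, WT 2, KO 1 and KO 2) and a 1700 series (WT 3, WT 4, KO 3 and KO 4), and the labels do not say what the numbers mean. All 15 classical monocyte markers passed the filter on low counts, with Ly6c2 at 4058 to 6378 CPM and Ccr2 at 1049 to 2260 CPM, while Itgam (9.57 to 17.9 CPM), Vcan (6.77 to 22.03 CPM) and Ctsg (2.61 to 20.3 CPM) were low. Cd14, Chil3 and Ctsg of that list rose in KO within the 1600 series in edgeR, and the 11 T cell markers summed to at most 2.06 CPM. KO 1 and KO 2 stood apart: the neutrophil gene S100a8 was at 796 and 1584 CPM there, against 24.3 to 73.9 CPM in the other libraries. The members' changes between genotypes are therefore given with and without these libraries.

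The family was dominated by a few members. Gbp3 took 52.7% of all member counts, Gbp2 27.5% and Gbp9 13.3%, together 93.5%. Between genes, levels were compared as CPM per kb of exon. On that scale the means over the 8 libraries ran from Gbp3 (19.4) through Gbp2 (13.1), Gbp9 (3.08), Gbp8 (0.463), Gbp7 (0.424), Gbp5 (0.326) and Gbp4 (0.201) to Gbp6 (0.0379). Gbp3 ranked 2270th of the 10969 tested genes with a length, and Gbp2 ranked 2799th. Gbp3 was above Gbp2 in 8 of 8 libraries, although the ranges over libraries overlapped (11.8 to 26.8 and 6.42 to 22.4 CPM per kb). Gbp9, at 1.59 to 4.48 CPM per kb, overlapped neither Gbp2 above it nor Gbp8 below it. Gbp8, Gbp7, Gbp5 and Gbp4 overlapped each other, and Gbp8 was above Gbp7 in 5 of 8 libraries. Measured per kb of the longest transcript instead, Gbp5 came to 0.575 CPM per kb and stood above Gbp8 (0.472) and Gbp7 (0.424), so the order of these low members depends on the gene model. Gbp6 (0 to 0.0863 CPM per kb) overlapped Gbp4 (0.0505 to 0.356) but was below it in 8 of 8 libraries.

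**Figure D1:**
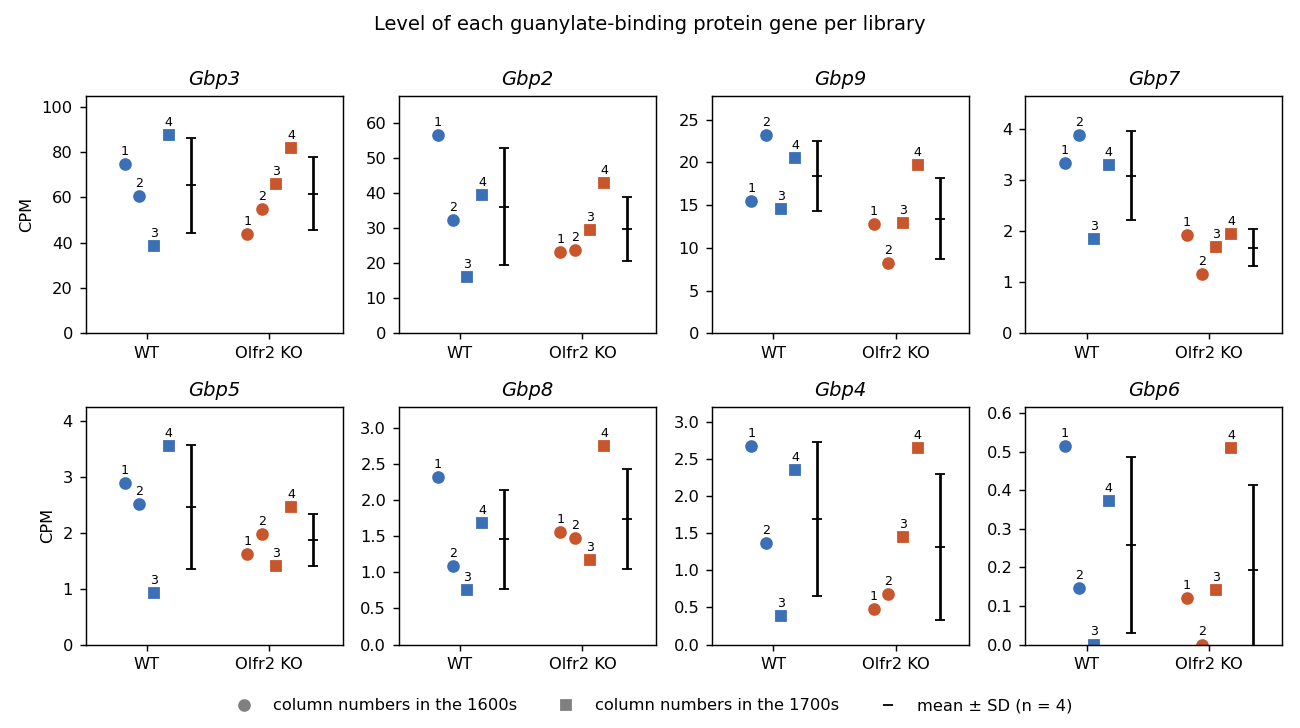
Levels of the GBP members in each library, in CPM, by genotype and column-number series; each numbered point is 1 library, circles are the 1600 series and squares the 1700 series, and bars are mean ± SD (n = 4), clipped at 0. Gbp3, Gbp2 and Gbp9 hold most of the counts, and WT 3 is the lowest WT library for all 7 tested members.

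Gbp3 (ENSMUSG00000028268; chromosome 3, 142560026 to 142573209), which is recruited to pathogen vacuoles, was at 74.8, 60.5, 38.6 and 87.4 CPM in WT 1 to WT 4 and at 44.0, 55.1, 65.7 and 81.8 CPM in KO 1 to KO 4. Mean levels were 65.3 ± 20.96 (WT) and 61.6 ± 16.1 CPM (KO; SD, n = 4 each). WT 3 was the lowest library and WT 4 the highest, and the genotypes overlapped over almost the whole range. The log2 change (KO minus WT) was -0.08 ± 0.25 (SE, edgeR adjusted p = 0.877).

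Gbp2 (ENSMUSG00000028270; chromosome 3, 142620602 to 142638008), which gathers on the vacuole of Toxoplasma and is needed for its control, was at 56.5, 32.1, 16.2 and 39.4 CPM in WT 1 to WT 4 and at 23.1, 23.9, 29.3 and 42.8 CPM in KO 1 to KO 4. The WT libraries alone spanned 3.49-fold, from WT 3 to WT 1, and the span of the KO libraries, from KO 1 to KO 4, lay inside it. Means were 36.04 ± 16.7 (WT) and 29.8 ± 9.12 CPM (KO; SD, n = 4 each), and the log2 change was -0.27 ± 0.35 (SE, edgeR adjusted p = 0.700).

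Gbp7 (ENSMUSG00000040253; chromosome 3, 142530342 to 142550149), a member linked to assembly of the NADPH oxidase on bacterial phagosomes, was at 3.34, 3.88, 1.84 and 3.29 CPM in WT 1 to WT 4 and at 1.92, 1.17, 1.68 and 1.95 CPM in KO 1 to KO 4. All KO libraries were below WT 1, WT 2 and WT 4, and WT 3 lay among the KO libraries. The mean was 3.09 ± 0.874 (WT) and 1.68 ± 0.361 CPM (KO; SD, n = 4 each). Of the 7 members Gbp7 had the most negative log2 change, -0.87 ± 0.28 (SE), and it did not pass the threshold (edgeR adjusted p = 0.116). Over 20 alternative settings the change stayed between -1.05 and -0.74, and the smallest adjusted p was 0.0548, from limma-voom with quality weights. The level rested on 19 to 79 counts per library.

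Gbp5 (ENSMUSG00000105504; chromosome 3, 142493978 to 142522344), which is known to promote assembly of the NLRP3 inflammasome, was at 2.88, 2.50, 0.919 and 3.54 CPM in WT 1 to WT 4 and at 1.62, 1.97, 1.40 and 2.46 CPM in KO 1 to KO 4. Here 3 WT libraries were above all KO libraries and WT 3 was below all of them. The log2 change was -0.39 ± 0.36 (SE, edgeR adjusted p = 0.553), from means of 2.46 ± 1.11 (WT) and 1.86 ± 0.463 CPM (KO; SD, n = 4 each).

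Gbp9 (ENSMUSG00000029298; chromosome 5, 105077630 to 105139539), a member of the chromosome 5 cluster, was at 15.5, 23.2, 14.6 and 20.5 CPM in WT 1 to WT 4 and at 12.8, 8.24, 12.9 and 19.7 CPM in KO 1 to KO 4. KO 1, KO 2 and KO 3 were below every WT library, and KO 4 was above WT 1 and WT 3. The means were 18.4 ± 4.08 (WT) and 13.4 ± 4.74 CPM (KO; SD, n = 4 each), and the log2 change was -0.45 ± 0.24 (SE, edgeR adjusted p = 0.298).

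Gbp8 (ENSMUSG00000034438; chromosome 5, 105014150 to 105139540) was at 2.31, 1.08, 0.757 and 1.68 CPM in WT 1 to WT 4 and at 1.56, 1.48, 1.17 and 2.74 CPM in KO 1 to KO 4. It was the member with a positive log2 change, 0.26 ± 0.38 (SE, edgeR adjusted p = 0.737), and without KO 4 that change was -0.07.

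Gbp4 (ENSMUSG00000079363; chromosome 5, 105115767 to 105139586), reported to restrain IRF7 and so type I interferon production, was at 2.67, 1.37, 0.378 and 2.36 CPM in WT 1 to WT 4 and at 0.479, 0.677, 1.45 and 2.65 CPM in KO 1 to KO 4. Both genotypes held low and high libraries: the highest was 7.06-fold above the lowest in WT and 5.52-fold in KO, the widest spread of the 7 members. In WT 3 the value rested on 7 counts (95% exact Poisson interval 2.81 to 14.4 counts). The log2 change was -0.33 ± 0.60 (SE, edgeR adjusted p = 0.791).

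Gbp6 (ENSMUSG00000104713; chromosome 5, 105270702 to 105293698) had 10, 3, 0 and 6 counts in WT 1 to WT 4 and 2, 0, 3 and 11 counts in KO 1 to KO 4, and was not tested. Of the 50-base stretches of its transcripts, 49.9% also occur in another GBP gene, mostly Gbp10, so reads of Gbp6 and its paralog may not have been told apart by the authors' counting. That share was 18.1% for Gbp8, 8.05% for Gbp9, 7.53% for Gbp4 and at most 3.75% for the chromosome 3 members. Exons that overlap those of a neighbouring member covered 0.814% of Gbp4, 1.77% of Gbp8 and 1.16% of Gbp9. The other GBP genes had few assigned counts: Gbp2b had 7 counts in all 8 libraries together, Gbp11 had 15 and Gbp10 had 0. The share of 50-base stretches found in another GBP gene was 76.2% for Gbp10, 19.2% for Gbp11 and 1.84% for Gbp2b. The 0 counts of Gbp10 therefore do not show that its RNA was absent.

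Across genotypes, 0 of the 7 tested members passed the edgeR threshold (Benjamini-Hochberg adjusted p of 0.05 over all tested genes), where 1.06% of all tested genes did (119 genes). At an unadjusted p under 0.05 in edgeR there was 1 member, Gbp7, against 2344 of the 11222 tested genes. DESeq2 called 0 members where it called 784 genes, and limma-voom called 0 members and 0 genes in all. The 119 is not stable: edgeR called 0 genes on leaving out any one of WT 1, WT 3, KO 2 and KO 3, without WT 4 it called 3, and without WT 2 it called 515. In every one of these fits 0 members passed, an outcome that was fixed where edgeR called 0 genes. The log2 changes of 6 of 7 members were below 0, with a median of -0.33, while 50.45% of all tested genes had a negative change and their median was -0.0038. The KO and WT libraries overlapped for all 7 members, whereas 6.06% of all tested genes had every KO library below every WT library and 5.35% had every KO library above. In bulk RNA of a sorted population, fewer cells that express a gene and less RNA per cell cannot be told apart.

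The members tended to be high or low in the same libraries. WT 3 was the lowest WT library for 7 of 7 members and KO 4 the highest KO library for 7 of 7, while over all tested genes WT 3 was lowest for 32.9% and KO 4 highest for 25.2%. Summed member levels were 158.5, 124.8, 73.2 and 158.6 CPM in WT 1 to WT 4 and 85.5, 92.5, 113.8 and 154.6 CPM in KO 1 to KO 4. WT 1, WT 4 and KO 4 were thus nearly equal at the top, and WT 3 was below every KO library. With each member's log2 CPM (prior count 2) centred on its own mean, the members' mean was 0.56, 0.21, -0.76 and 0.52 in the WT libraries and -0.39, -0.44, -0.17 and 0.46 in the KO libraries. All 7 members were above their own mean in WT 1 and in WT 4, and 0 of them were in WT 3 or in KO 2.

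**Figure D2:**
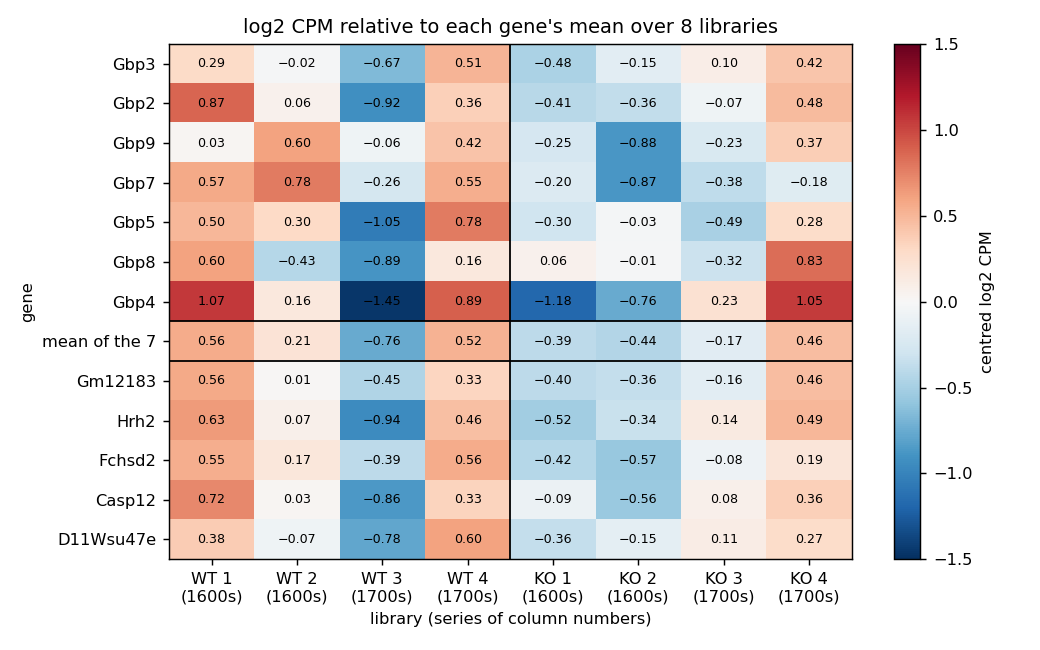
Centred log2 CPM (each gene's log2 CPM minus its own mean over the 8 libraries, colour and number) of the 7 tested members, their mean and the 5 genes of the most alike profile, with the libraries in columns. The members' mean is lowest in WT 3 (-0.76) and highest in WT 1 (0.56), WT 4 (0.52) and KO 4 (0.46).

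Likeness between profiles was described as the root mean square difference of these centred log2 values over the 8 libraries, for which a smaller value means a more alike gene. Of the members, Gbp2 (0.18) and Gbp3 (0.22) lay closest to the mean of the others and Gbp4 (0.60) farthest. The closest pair was Gbp2 and Gbp3 (0.26), followed by Gbp7 and Gbp9 (0.30), which lie on different chromosomes, and the least alike pair was Gbp4 and Gbp7 (0.79). Gbp7 and Gbp9 shared their highest library, WT 2, and their lowest, KO 2. Among the 11215 other tested genes, those nearest to the family were Gm12183 (0.15), a predicted gene model, Hrh2 (0.15), the histamine H2 receptor, Fchsd2 (0.17), Casp12 (0.19), an inflammatory caspase, and D11Wsu47e (0.20). The median distance over those genes was 0.55, and the family's own profile had a root mean square of 0.47. These 5 genes were low, at 0.628 to 4.99 CPM on average, and all points share the same 8 libraries.

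Within the 1600 series, the members lay lower in KO, and none passed the test. Every KO library was below every WT library for 6 of 7 members (Gbp2, Gbp3, Gbp4, Gbp5, Gbp7 and Gbp9, not Gbp8), in a comparison of 2 against 2 libraries where 26.7% of all tested genes had that order. The log2 changes were negative for 7 of 7 members, with a median of -0.88, against 53.4% of all tested genes and a median of -0.04. The changes were -1.80 ± 0.76 for Gbp4, -1.22 ± 0.39 for Gbp7, -0.91 ± 0.45 for Gbp2, -0.88 ± 0.31 for Gbp9, -0.58 ± 0.54 for Gbp5, -0.45 ± 0.35 for Gbp3 and -0.16 ± 0.55 for Gbp8 (SE). The edgeR test called 0 of 7 members, with adjusted p from 0.124 for Gbp7 to 0.908 for Gbp8, where it called 1.85% of all tested genes. At an unadjusted p under 0.05 there were 3 members, Gbp4, Gbp7 and Gbp9, against 2185 of the 11222 tested genes. DESeq2, which called 601 genes there, and limma-voom each called 0 members. With no filter on low counts edgeR called 973 genes there, against 208 with the filter. Under that setting 3 members passed: Gbp9 (edgeR adjusted p = 0.00648), Gbp4 (0.0166) and Gbp2 (0.0208).

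Beside these changes, KO 1 and KO 2 were the libraries with the highest sum of neutrophil markers: the 20 neutrophil markers summed to 3590 and 5109 CPM there, to 1567 to 1843 CPM in WT 1 and WT 2 and to 1501 to 2071 CPM in the 1700 series. S100a9 was at 479 and 789 CPM in KO 1 and KO 2 and at 7.30 to 31.6 CPM elsewhere. Within the 1600 series 3 of 10 tested markers rose in KO in edgeR (S100a8, S100a9 and Prtn3), and Cd177 fell, from 383 and 392 CPM in WT 1 and WT 2 to 223 and 208 CPM in KO 1 and KO 2. Of these 10, 8 had a positive change there. Among the markers that did not pass the filter, Ngp was at 108 and 86.8 CPM in KO 1 and KO 2 and at most 1.54 CPM elsewhere. Camp was at 64.5 and 42.6 CPM there and at most 0.668 CPM elsewhere. Stfa2l1 was at 0 in all libraries, and the other 19 markers had counts in at least 1 library. Outside KO 1 and KO 2, most of the sum came from Mcemp1, Mmp8 and Cd177. Conventional dendritic cell markers summed to 180 and 155 CPM in KO 1 and KO 2 and to between 309 and 646 CPM in the other libraries. Cd209a was the largest part of that sum in every library, at 69.9 and 51.2 CPM in KO 1 and KO 2 and 159 to 460 CPM elsewhere. Clec10a was at 45.8 and 49.1 CPM in KO 1 and KO 2 and 37.5 to 85.6 CPM elsewhere. Dpp4 was at 16.1 and 14.8 CPM there and 10.4 to 35.5 CPM elsewhere. Of the other markers of that list, Zbtb46, Xcr1 and Clec9a were at most 0.604 CPM, and Flt3 was at 17.97 and 15.8 CPM in KO 1 and KO 2 against 11.7 to 17.7 CPM elsewhere. Yet 6 of 7 tested markers of the list had a negative change within the 1600 series (median -0.78). Batf3 was the 1 called there (-1.37 ± 0.28, SE, edgeR adjusted p = 0.0410), and Cd209a was not (0.102). Batf3 was at 16.8 and 13.3 CPM in KO 1 and KO 2 and at 27.6 to 67.2 CPM elsewhere. Of 12 tested nonclassical monocyte markers, 11 had a negative change within the 1600 series (median -0.80) and 2 were called in edgeR. Cx3cr1, 1 of these 2, was at 19.1 and 17.1 CPM in KO 1 and KO 2 and at 28.8 to 46.8 CPM elsewhere. Within the 1700 series 8 of the 12 were negative (median -0.26), and across genotypes 12 were (median -0.48), with 1 called. The part of the neutrophil, dendritic cell and nonclassical monocyte markers in the members' levels was not tested. Without KO 1 and KO 2, KO libraries of the 1700 series were set against all WT libraries. The log2 changes were 0.01 for Gbp2, 0.19 for Gbp3, 0.29 for Gbp4 and 0.44 for Gbp8. They were -0.16 for Gbp9, -0.33 for Gbp5 and -0.75 for Gbp7. There 0 members passed in edgeR, where 7 of all tested genes did.

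Within the 1700 series the members had no common direction. Changes were negative for 3 of 7 members and the median was 0.23, against 50.7% of all tested genes and a median of -0.01. They ranged from -0.49 ± 0.39 for Gbp7 to 0.70 ± 0.55 for Gbp8 (SE), with edgeR adjusted p from 0.475 to 0.874. The test called 0 of 7 members, where it called 1.38% of all tested genes. At an unadjusted p under 0.05 there were 0 members, against 2548 of the 11222 tested genes. DESeq2, which called 756 genes there, and limma-voom called 0 members. No member had both KO libraries on one side of both WT libraries, an order that 28.3% of all tested genes had with KO below and 27.3% with KO above. WT 3 and WT 4 differed by 2.27-fold in Gbp3, and leaving out a single library turned the sign for 6 of 7 members, all but Gbp7. Without WT 4, or without WT 3, a single WT library is left in the series. Without WT 4 the Gbp3 change was 0.94, and without WT 3 it was -0.24. With offsets for gene length and base composition it was -0.03.

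The difference between the series was tested as an interaction, the change in the 1700 series minus that in the 1600 series. It was positive for 7 of 7 members, with a median of 0.78, where the median over all tested genes was 0.01. It was 2.40 ± 1.02 for Gbp4, 1.29 ± 0.63 for Gbp2, 0.85 ± 0.78 for Gbp8, 0.78 ± 0.43 for Gbp9, 0.73 ± 0.55 for Gbp7, 0.68 ± 0.49 for Gbp3 and 0.39 ± 0.76 for Gbp5 (SE). The edgeR test called 0 of 7 members (adjusted p from 0.286 to 0.860), where it called 0.784% of all tested genes. Gbp4 alone had an unadjusted p under 0.05, against 1806 of the 11222 tested genes. Limma-voom called 0 of 7, and DESeq2 called 0 of the 3 members to which it gave an adjusted p. Without WT 4, the interactions were 2.08 for Gbp2, 1.39 for Gbp3 and 4.21 for Gbp4. That fit leaves WT 3 as the sole WT library of the 1700 series. Without WT 3 the Gbp5 interaction was -0.28. The series and the libraries that stand apart cannot be told apart, since KO 1 and KO 2 are the KO libraries of the 1600 series.

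**Figure D3:**
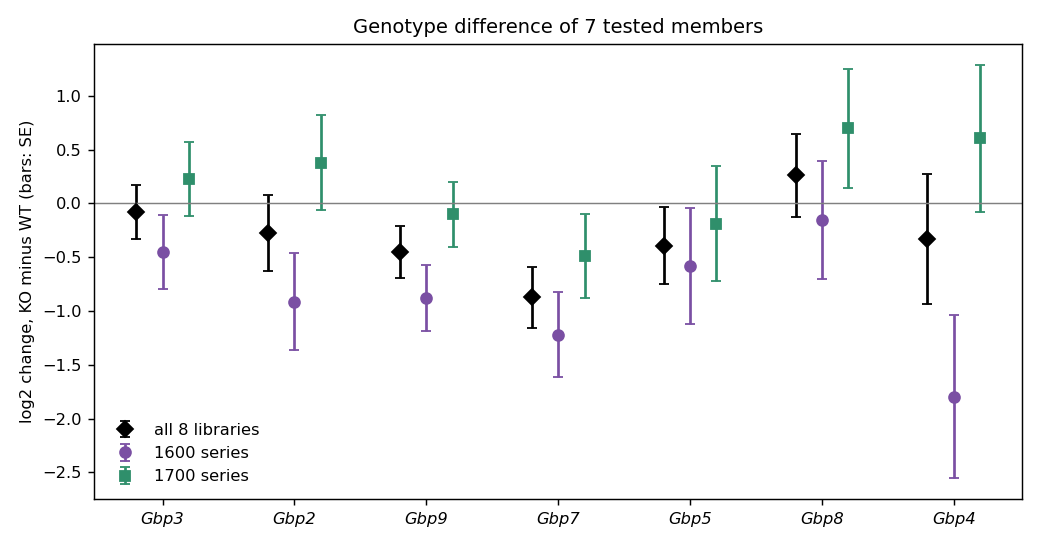
Log2 change (KO minus WT) of the tested members over all 8 libraries and within each column-number series; bars are standard errors from edgeR. All 7 changes are below 0 in the 1600 series (median -0.88), and 3 of 7 are in the 1700 series (median 0.23).

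The genes upstream of the family were then compared. Neither chain of the interferon-gamma receptor passed the test. Ifngr1 was at 1092 ± 171 CPM in WT and 1186 ± 206 CPM in KO, and Ifngr2 at 276 ± 37.4 and 308 ± 38.5 CPM (SD, n = 4 each), with log2 changes of 0.12 ± 0.15 and 0.16 ± 0.13 (SE, edgeR adjusted p = 0.682 and 0.511). Ifng itself, the ligand, had 2 counts in all libraries together. Irf1 was at 169, 131, 89.1 and 120 CPM in the WT libraries and at 79.2, 81.6, 103 and 174 CPM in the KO libraries (log2 change -0.21 ± 0.28, SE, edgeR adjusted p = 0.698). As for the GBPs, WT 3 was the lowest WT library for Irf1 and KO 4 the highest KO library. Over all tested genes WT 3 was the lowest WT library for 32.9% and KO 4 the highest KO library for 25.2%. Spi1 (PU.1) and Irf8, myeloid factors that act with IRF1, had log2 changes of -0.30 ± 0.12 and -0.26 ± 0.17 (SE, edgeR adjusted p = 0.182 and 0.392). Their order of libraries differed: WT 2 was the lowest WT library for Spi1 and WT 4 for Irf8, and KO 1 was the highest KO library for both. Of the 16 genes for interferon receptors and signalling, 0 were called in edgeR across genotypes and 10 had a negative change (median -0.25). Of 9 transcription factors, 0 were called and 9 were negative (median -0.34), and their median was -0.90 within the 1600 series and -0.39 within the 1700 series, where 7 were negative.

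The immunity-related GTPases, a second family of interferon-gamma-induced GTPases that work with the GBPs at pathogen vacuoles, were the nearest comparison. Of 9 tested, 0 passed across genotypes and 8 had a negative change (median -0.30). Within the 1600 series 5 of 9 fell in KO in edgeR (Ifi47, Igtp, Irgm1, Tgtp1 and Tgtp2, named after their values were seen), with a median of -0.94 against -0.88 for the GBPs. Ifi47 was at 555 and 552 CPM in WT 1 and WT 2 and at 268 and 174 CPM in KO 1 and KO 2, and at 424, 423, 414 and 407 CPM in WT 3, WT 4, KO 3 and KO 4. Its log2 change was -1.32 ± 0.18 in the 1600 series (SE, edgeR adjusted p = 0.00936) and -0.05 ± 0.17 in the 1700 series (0.901), and the interaction was 1.28 ± 0.24 (0.0436). The call in the 1600 series was lost without KO 2, and that of the interaction with the offsets and without any 1 of 6 libraries (WT 1, WT 2, WT 3, KO 2, KO 3 or KO 4). Without KO 1 and KO 2, its change across genotypes was -0.24 ± 0.16 (SE, edgeR adjusted p = 0.482), and the other 4 calls, which rest on those libraries, have no value without them. Whether these GTPases and the GBPs differ from each other was not tested.

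**Figure D4:**
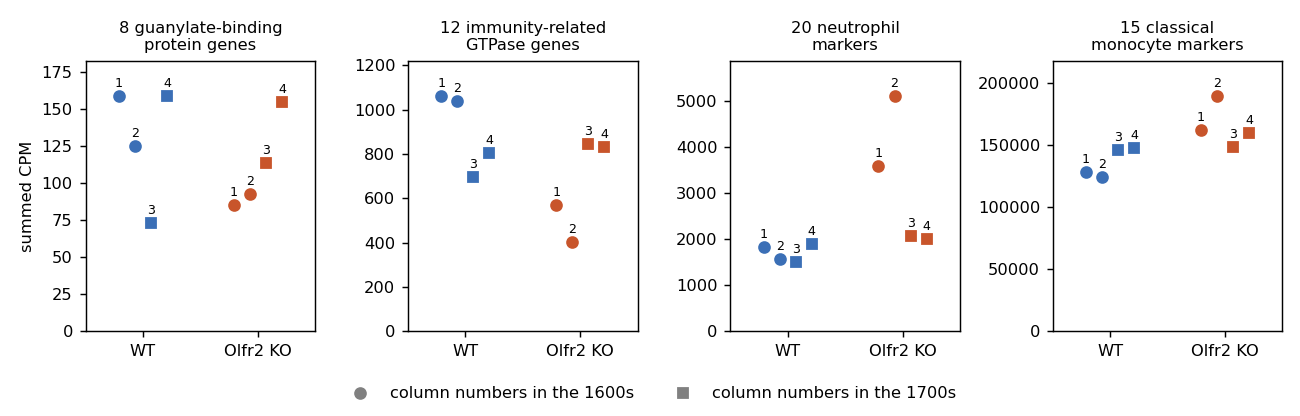
Summed levels per library, in CPM, of the 8 GBP members, 12 immunity-related GTPases, 20 neutrophil markers and 15 classical monocyte markers, by genotype; circles are the 1600 series and squares the 1700 series. The GBP sum runs from 73.2 CPM (WT 3) to 158.6 CPM (WT 4), and the neutrophil sum is highest in KO 1 (3590) and KO 2 (5109).

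Among 19 other tested targets of interferon-gamma, 2 fell in KO across genotypes: Tap1, the peptide transporter of antigen presentation, from 110 ± 17.2 to 57.3 ± 10.7 CPM (SD, n = 4 each; log2 change -0.94 ± 0.16, SE, edgeR adjusted p = 0.0341), and Parp14 (-1.10 ± 0.23, 0.0453). Their median was -0.27 and 15 were negative. Within the 1600 series 2 fell in KO in edgeR, within the 1700 series 1 rose, and 1 was called for the interaction. Cxcl10, named after its values were seen, was among each of these. Its log2 change was -2.07 ± 0.17 in the 1600 series (SE, edgeR adjusted p = 4.76e-04) and 0.96 ± 0.17 in the 1700 series (0.0334). The interaction was 3.03 ± 0.24 (3.07e-04). Of 25 type I interferon response genes, Oas3 (-1.37 ± 0.23, edgeR adjusted p = 0.0341) and Bst2 (-0.71 ± 0.14, 0.0377) fell in KO, and 25 were negative, with a median of -0.41 across genotypes, -0.69 in the 1600 series and 0.13 in the 1700 series. Of the type I genes 4 fell in KO within the 1600 series in edgeR, and 2 were called for the interaction. Each of the 4 calls across genotypes (Tap1, Parp14, Oas3 and Bst2) was lost in limma-voom, after correction for length and GC content, without the pair KO 1 and KO 2, and without WT 1, WT 3, WT 4, KO 2 or KO 3 in turn. Bst2 is also a marker of plasmacytoid dendritic cells, whose 12 markers summed to 436 to 470 CPM in the WT libraries and 188 to 324 CPM in the KO libraries. Nearly all of that sum was Bst2 itself and Irf7, another interferon-inducible gene (194 and 268 of 470 CPM in WT 1). Siglech, Klk1 and Lag3 were at 0 in all libraries, and Tcf4, at 4.61 to 7.47 CPM, had a log2 change of -0.05. For the GBPs, the interferon-gamma targets and the type I genes the median change was negative in the 1600 series and positive in the 1700 series, and for the 9 transcription factors it was negative in both. That switch was not particular to these lists. It was also seen for the interferon receptors and signalling (-0.36 and 0.15) and the immunity-related GTPases (-0.94 and 0.32). Conventional dendritic cell markers (-0.78 and 0.21) and the 2 tested B cell markers (-0.63 and 0.42) showed it too. The medians of prenylation (-0.05 and 0.15), ubiquitin-like conjugation (-0.12 and 0.01) and inflammasomes (-0.03 and 0.09) changed sign too. Over all tested genes the medians were -0.04 and -0.01. The median interactions were 0.005 for prenylation, -0.05 for ubiquitin-like conjugation and 0.23 for inflammasomes. They were 0.78 for the GBPs and 0.01 over all tested genes.

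The machinery that GBPs use was compared last. Among 7 tested genes of prenylation, 0 were called and 4 were negative (median -0.10), with Fnta, a subunit of the prenyl transferases, at 0.30 ± 0.14 (SE, edgeR adjusted p = 0.229). A list of 13 tested genes was drawn up around the ubiquitin-like conjugation that loads these GTPases on vacuoles, and its median was 0.02. Its conjugation genes Atg3, Atg5, Atg7, Atg12 and Atg16l1 had changes of -0.06 to 0.20, and none was called. The call on the list was Rnf213, a ubiquitin ligase, which fell in KO (-1.66 ± 0.30, SE, edgeR adjusted p = 0.0341). It was lost in limma-voom, with the offsets, and without any 1 library but WT 2 and KO 4. Without KO 1 and KO 2 together it was lost too, and the change was -1.43. Of 13 inflammasome and pyroptosis genes 0 were called across genotypes and 6 were negative (median 0.11), with Il1b at 0.36 ± 0.46 (SE, edgeR adjusted p = 0.696).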

How the data were processed

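RNA of sorted splenic Ly6Chigh monocytes (4 WT and 4 KO libraries) was made into cDNA with oligo-dT priming, template switching and PCR, per the labels' protocols. The authors deposited raw counts per gene. The submitters' processing notes name HISAT2 2.0.5, featureCounts 1.5.0-p3 and GRCm38 without settings. The annotation and the strand setting are not given in the sources here, so reads of overlapping, antisense or paralogous genes cannot be told apart. PCR reads are not independent molecules, and floors and intervals cover counting error only.

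Libraries were grouped by the labelled genotype. The deposited counts were tested with edgeR 4.0.16 (quasi-likelihood, robust, filterByExpr, TMM) in R 4.3.3, with Benjamini-Hochberg adjustment over 11222 genes (99.9% of counts) at 0.05. Contrasts within the column-number series and their interaction came from a model of 4 cells of 2 libraries. No 2 libraries of a genotype agreed within sampling noise. The script was tested on simulated data. Alternatives were other normalization, filters and thresholds, DESeq2 1.42.0, limma-voom (limma 3.58.1), length and GC offsets (mgcv 1.9.3), series and replicate terms, and left-out libraries.

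The members and gene lists were chosen with earlier results of these data known. Named genes were all members, up to 3 called genes per pathway list or its most abundant gene, 11 fixed genes, and the 5 genes of the most alike profile. Of these, 1 gene is not reported here. Lengths come from GENCODE M21.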

Additional observations from a re-analysis of the deposited data

How the results depend on the processing

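Across genotypes, 0 members were called under each of the 20 alternatives. Where 0 genes were called that outcome was fixed, and where few were called it says little. The 119 called genes became 742 with no filter on low counts, 784 with DESeq2 and 0 with limma-voom (2352 at an unadjusted p under 0.05). They became 476 with limma-voom quality weights, 1 with the length and GC offsets and 251 with the series as covariate. In edgeR there were 611 at an adjusted p of 0.1 and 7 without KO 1 and KO 2. Leaving out 1 library gave 0 (without WT 1, WT 3, KO 2 or KO 3, with 1704 to 2069 genes at an unadjusted p under 0.05 in edgeR) to 515 genes (without WT 2). The replicate numbers did not pair the libraries (correlations of the deviations of same-numbered libraries from -0.05 to 0.09). The replicate block gave 244 genes, 183 with the offsets, and 0 members.

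Within the 1600 series the 208 called genes became 973 with no filter and 601 with DESeq2, and 9 (without KO 2) to 373 (without WT 3) on leaving out 1 library. Members called were 3 with no filter. Within the 1700 series the 155 became 1342, 756 and, with the offsets, 4, and 0 (without KO 3; 1332 at an unadjusted p under 0.05) to 1264 (without WT 4), with 0 to 1 members. For the interaction the 88 became 645, 451 and 6, and 3 (without KO 4) to 628 (without WT 4), with 0 to 3 members, and 2 with no filter. The cause was not tested.

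Of the members' log2 changes under all alternatives, 404 values kept sign and side of the threshold, 9 passed it and 21 turned sign. Leaving out 1 library, changes across genotypes ran from -0.52 to 0.030 for Gbp2, -0.27 to 0.089 for Gbp3 and -0.068 to 0.58 for Gbp8. Within the 1600 series Gbp8 ran from -0.60 to 0.49. Within the 1700 series the ranges were -0.13 to 1.16 for Gbp2, -0.24 to 0.94 for Gbp3, -0.20 to 2.42 for Gbp4, -0.87 to 1.07 for Gbp5, -0.046 to 1.36 for Gbp8 and -0.44 to 0.18 for Gbp9, and for the interaction -0.28 to 1.65 for Gbp5. Without KO 1 and KO 2 the changes were 0.012 for Gbp2, 0.19 for Gbp3, 0.29 for Gbp4 and 0.14 for Irf1. Limma-voom gave 0.087 for Gbp5 in the 1700 series, and quality weights -0.040 for Gbp8. With the offsets Gbp3 was -0.026 in the 1700 series, Ifngr1 -0.015 (-0.022 with the replicate block) and Spi1 0.0012. Scaling by RLE or the offsets moved the median of all genes by less than 0.1 in each comparison.

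Low counts limit Gbp4, Gbp5, Gbp7 and Gbp8 (7 to 79 counts per library), and 4 libraries per genotype limit every comparison.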
